A study of Mus musculus with 18 samples.

Results

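The transcripts described here are those of 44 genes that dividing cells switch on for DNA replication and mitosis, out of 55487 genes counted in each of 18 RNA-seq libraries of mouse adipose tissue. The genes were chosen by symbol as textbook proliferation genes, with earlier results of these data known, and each symbol matched a single gene of the deposited tables. The libraries came from male mice on a chow diet after a 4 h fast, with 1 mouse per library. Csn8AKO mice carried floxed Csn8 alleles and a Cre transgene under the adiponectin promoter, which deletes exons 4 to 6 of Csn8 (gene symbol Cops8) in adipocytes, and their Csn8 f/f littermates without Cre served as Ctrl. Subcutaneous white adipose tissue (sWAT) was taken at 12 weeks of age, given as 3 months in the methods, from 4 Ctrl and 4 Csn8AKO mice, and brown adipose tissue (BAT) at 4 weeks from 5 Ctrl and 5 Csn8AKO mice. Depot and age therefore cannot be told apart in any comparison of BAT with sWAT. Cre acts in adipocytes, while the RNA came from whole tissue with all of its vascular, stromal and immune cells, so that more dividing cells of a type cannot be told apart from more RNA per cell.

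A dividing cell passes through transcription in waves. At the start of S phase, E2F1 and E2F2 drive genes of the replicative helicase (Mcm2 to Mcm7), of its loader Cdt1, and of the enzymes that make deoxynucleotides, while E2F8 closes that wave. Later, MYBL2 and FOXM1 act on a second set through the cell cycle homology region, a short promoter element held silent by the DREAM complex in resting cells. That second set holds the cyclins and kinases of mitosis, the motors of the spindle, and the parts of the kinetochore, the plate on which microtubules grip each chromosome. Orderly destruction of these proteins by cullin-RING ligases and by the anaphase-promoting complex resets the cycle. CSN8 is a subunit of the COP9 signalosome, which removes NEDD8 from cullins, and CDT1 and E2F1 are known substrates of cullin-RING ligases. Mature adipocytes have left the cycle, and dividing cells of fat are chiefly progenitors, endothelium and immune cells.

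The promoters of these genes carry the letters of both waves, and 5 are shown because they hold E2F matches alone (Mcm5 and Mcm6), both kinds of match (Cdk1) or cell cycle homology region matches alone (Plk1 and Bub1). Each covers 250 bases before to 50 bases after the RefSeq start on GRCm38.p6, written 5′ to 3′ along the gene, with matches to the E2F motifs (TTTCCCGC, TTTGGCGC, TTTCGCGC or TTTGCCGC) and to the cell cycle homology region (TTTGAA or TTCGAA) on either strand in capitals.
Mcm5, chr8:75109259-75109558, plus strand: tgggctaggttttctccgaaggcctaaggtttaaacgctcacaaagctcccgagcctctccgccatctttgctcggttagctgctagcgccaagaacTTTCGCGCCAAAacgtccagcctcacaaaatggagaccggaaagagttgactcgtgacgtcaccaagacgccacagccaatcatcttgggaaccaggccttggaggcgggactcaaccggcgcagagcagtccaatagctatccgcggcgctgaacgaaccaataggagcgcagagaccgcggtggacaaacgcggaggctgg
Mcm6, chr1:128359656-128359955, minus strand: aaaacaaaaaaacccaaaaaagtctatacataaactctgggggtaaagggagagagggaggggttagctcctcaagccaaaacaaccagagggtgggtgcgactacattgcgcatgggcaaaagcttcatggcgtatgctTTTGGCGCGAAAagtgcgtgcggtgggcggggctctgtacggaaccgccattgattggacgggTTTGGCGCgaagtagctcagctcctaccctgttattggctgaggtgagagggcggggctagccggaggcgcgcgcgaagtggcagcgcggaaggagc
Cdk1, chr10:69352863-69353162, minus strand: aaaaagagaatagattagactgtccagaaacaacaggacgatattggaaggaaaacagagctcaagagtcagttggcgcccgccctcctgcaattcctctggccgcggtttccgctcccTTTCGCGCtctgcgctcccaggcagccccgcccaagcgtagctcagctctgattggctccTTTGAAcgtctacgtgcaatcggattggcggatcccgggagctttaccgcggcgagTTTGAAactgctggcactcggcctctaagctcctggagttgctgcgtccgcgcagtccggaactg
Plk1, chr7:122159185-122159484, plus strand: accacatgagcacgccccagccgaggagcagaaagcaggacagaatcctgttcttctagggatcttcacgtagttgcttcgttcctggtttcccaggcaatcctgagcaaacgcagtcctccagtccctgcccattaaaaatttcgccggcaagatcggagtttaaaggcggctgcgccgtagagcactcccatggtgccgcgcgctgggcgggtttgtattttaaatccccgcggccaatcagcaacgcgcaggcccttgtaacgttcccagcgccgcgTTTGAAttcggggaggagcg
Bub1, chr2:127831810-127832109, minus strand: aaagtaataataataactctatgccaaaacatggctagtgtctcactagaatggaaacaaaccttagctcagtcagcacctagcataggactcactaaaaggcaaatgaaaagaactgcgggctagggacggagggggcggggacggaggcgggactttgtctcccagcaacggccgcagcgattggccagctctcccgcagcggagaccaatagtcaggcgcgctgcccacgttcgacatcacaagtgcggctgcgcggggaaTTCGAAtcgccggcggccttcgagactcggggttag
In the Mcm5 promoter, 2 E2F matches on opposite strands overlap in a single run of capitals, as do 2 of the 3 in that of Mcm6, and neither promoter holds a cell cycle homology region match. Cdk1, the kinase that starts mitosis, has 1 E2F match and 2 cell cycle homology region matches. Plk1 and Bub1, kinases of the spindle and of its checkpoint, have only the latter, at 31 and 15 bases after the start. Among the 37 genes with a promoter in the RefSeq table, 7 (18.9%) held an E2F match, against 2.60% of the 27025 genes of the table, and 23 (62.2%) held a cell cycle homology region match, against 21.7%. The E2F matches were in 5 of 11 replication genes and in 0 of 7 genes of the kinesin and spindle group. Cell cycle homology region matches were in 6 of 7 genes of each of the kinesin and spindle group and the cyclin and kinase group, and in 2 of 11 replication genes. The box CCAAT was in 28 of the 37 (75.7%), against 41.1% of all genes of the table. A match that overlapped another motif was counted for both.

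Between 15835721 and 66719937 reads were counted per library, with 15835721 to 23109603 in sWAT and 26658593 to 66719937 in BAT, so that low genes were measured more firmly in BAT. Ribosomal RNA genes took 0.863 to 47.8% of the reads. Cops8, of which only some exons are deleted, stood at 31.9 to 35.7 CPM (the read count scaled to library depth) in sWAT Ctrl and 27.0 to 34.9 in sWAT Csn8AKO, and at 38.1 to 46.0 against 28.4 to 37.4 in BAT, where it was called lower. The tissues held their own markers, with Ucp1, the uncoupling protein of brown fat, at 1637 to 4582 CPM in BAT Ctrl and 0.297 to 6.81 in sWAT Ctrl, and Adipoq at 1081 to 1546 CPM in sWAT Ctrl and 642 to 686 in BAT Ctrl. Before any result, 2 sWAT libraries stood apart by lymphocytes. The 12 B cell markers summed to 479 CPM in sWAT Ctrl 1 and 1141 in sWAT Csn8AKO 2, against 73.3 to 236 in the other 6, and the 12 T cell markers to 505 and 677, against 13.1 to 65.2. The 3 lymph node stroma genes with a single match (Cxcl13, Madcam1 and Glycam1) reached 31.3 and 136 CPM there, against 4.51 to 21.2. In BAT, 2 Csn8AKO libraries stood apart by muscle, with 6 skeletal muscle markers summing to 115 CPM in replicate 1 and 203 in replicate 5, against 1.38 to 2.51 in the other 8. Muscle markers were also uneven in sWAT, from 42.5 to 2631 CPM, with sWAT Ctrl 3 and sWAT Csn8AKO 4 the highest.

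**Figure D1:**
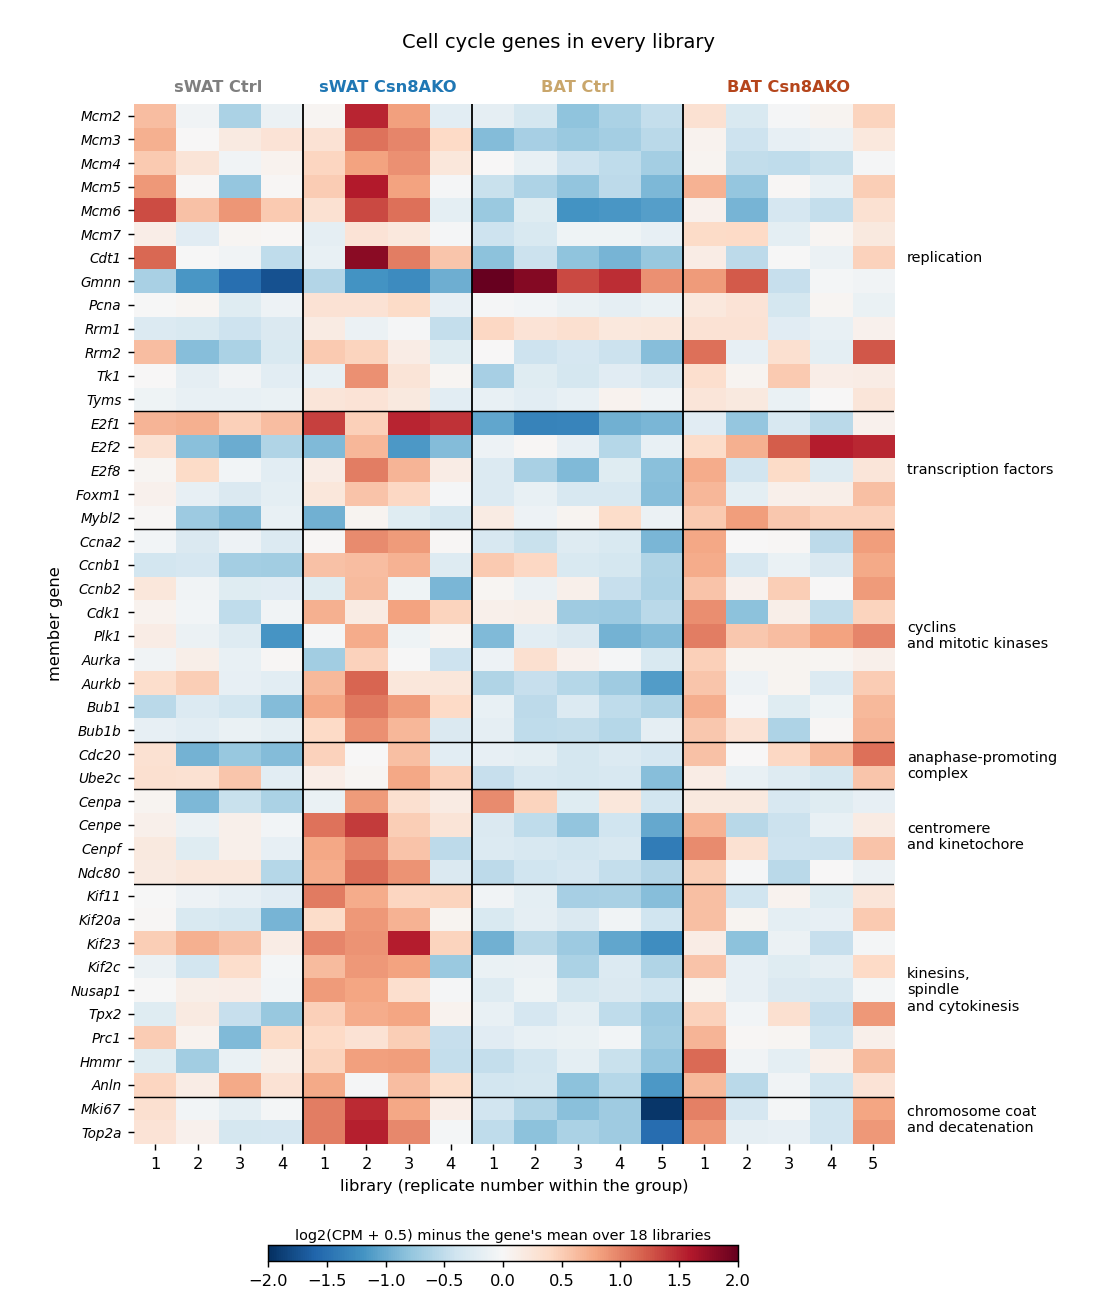
Heat map of the 44 genes (rows, grouped by role) in the 18 libraries (columns, grouped by tissue and genotype), coloured by log2(CPM + 0.5) minus the gene's mean over all libraries, with colours saturated beyond 2 in either direction. The sWAT Csn8AKO libraries 1 to 3 and the BAT Csn8AKO libraries 1 and 5 are red for most mitosis genes. BAT Ctrl 5 is the lowest of the BAT Ctrl columns in 27 of the 44 genes. Gmnn runs opposite to its neighbours, with its highest levels in BAT Ctrl.

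Proliferation genes were a small part of either tissue. Together the 44 genes summed to 205 to 274 CPM in sWAT Ctrl and 161 to 213 CPM in BAT Ctrl. Per kilobase of exon, which allows genes to be compared, Pcna, the sliding clamp of the DNA polymerases, was the highest in both Ctrl groups, at 9.53 ± 0.821 CPM per kilobase in sWAT (SD, n = 4) and 9.28 ± 0.411 in BAT (SD, n = 5). In sWAT Ctrl it was followed by Mcm7 at 4.83 ± 0.522, Mcm4 at 3.37 ± 0.636 and Mcm3 at 3.11 ± 0.706 CPM per kilobase, of which the last 2 lay within each other's spread. In BAT Ctrl the second place fell to Gmnn, the inhibitor of the helicase loader, at 9.17 ± 2.75 CPM per kilobase, within its own spread of Pcna, while in sWAT Ctrl Gmnn was at rank 12, at 1.05 ± 0.481. The lowest genes were Bub1 in sWAT Ctrl, at 0.0632 ± 0.0299 CPM per kilobase, and E2f8 in BAT Ctrl, at 0.0617 ± 0.0324. Genes that work in or before S phase filled the first 9 places in sWAT Ctrl, and Mki67, a protein that coats mitotic chromosomes, came next at 1.53 ± 0.256 CPM per kilobase.

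The first comparison asked how the genes differed between Csn8AKO and Ctrl sWAT. Nearly all of them were higher on average without CSN8 in adipocytes, but few passed the test. Of the 44 genes, 42 had a positive log2 fold change, with a median of 0.66 against 0.03 over all 18843 genes tested. Only Bub1 and Kif11 were called higher (2 of 44, against 2.30% of all genes tested) by edgeR's quasi-likelihood test at an adjusted p under 0.05, and 0 were called lower (3.00% of all genes). Only Bub1 also passed 2-fold (1 of 44, against 1.41% of all genes). At an unadjusted p under 0.05 there were 15 (20.4% of all genes). The 26 genes of mitosis had a median log2 fold change of 0.85, the 13 replication genes 0.43 and the 5 transcription factors 0.52. The Csn8AKO levels lay wholly above the Ctrl levels in 7 genes, all of them mitotic (Ccna2, Ccnb1, Cdk1, Bub1, Cenpe, Kif11 and Kif20a), against 5.64% of all genes tested, and wholly below them in 0 (7.98% of all genes).

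Bub1 (ENSMUSG00000027379, chr2:127801122-127831865, GRCm38) encodes a kinase of the spindle checkpoint, which holds a cell in mitosis until every chromosome is attached. Its levels were 0.255, 0.400, 0.344 and 0.101 CPM in sWAT Ctrl 1 to 4, and 1.36, 1.76, 1.47 and 0.940 CPM in sWAT Csn8AKO 1 to 4. Every Csn8AKO library was above every Ctrl library, though from few reads, with 6, 8, 6 and 2 reads in Ctrl and 30, 42, 22 and 13 in Csn8AKO. The log2 fold change was 2.33 ± 0.44 (SE, adjusted p = 0.0160), and without Csn8AKO 3 the adjusted p was 0.0576, so that the call was lost. Kif11 (ENSMUSG00000012443, chr19:37376403-37421859), the motor that pushes the spindle poles apart, stood at 2.51, 2.30, 2.18 and 2.08 CPM in Ctrl and 5.68, 4.52, 3.55 and 3.62 CPM in Csn8AKO. Here too the groups did not overlap, and the log2 fold change was 0.95 ± 0.24 (SE, adjusted p = 0.0469). The call was lost whichever of the 8 libraries was left out, at adjusted p of 0.0532 to 0.139.

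Among the cyclins and their kinase, Ccnb1, the cyclin that activates CDK1 for entry into mitosis, measured 0.765, 0.801, 0.516 and 0.507 CPM in sWAT Ctrl and 1.95, 2.01, 2.15 and 0.868 CPM in sWAT Csn8AKO. All 4 Csn8AKO libraries were above the Ctrl libraries, Csn8AKO 4 only narrowly, and the log2 fold change of 1.43 ± 0.37 (SE, adjusted p = 0.0532) missed the threshold. Cdk1 itself was at 1.61, 1.45, 0.917 and 1.42 CPM in Ctrl and 2.82, 1.76, 3.02 and 2.24 CPM in Csn8AKO, again without overlap, with a log2 fold change of 0.86 ± 0.29 (SE, adjusted p = 0.127). Plk1, which matures the centrosomes, overlapped between the genotypes (1.91, 1.50, 1.32 and 0.456 against 1.64, 3.14, 1.54 and 1.74 CPM), and its log2 fold change was 0.65 ± 0.44 (SE, adjusted p = 0.465). Aurka, the kinase of the spindle poles, gave -0.07 (adjusted p = 0.936), 1 of only 2 negative values, the other being Mcm6 at -0.10 (adjusted p = 0.916).

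Mki67 stood at 19.1, 14.5, 13.2 and 14.7 CPM in sWAT Ctrl and 31.1, 43.4, 26.2 and 16.6 CPM in sWAT Csn8AKO. Csn8AKO 1 to 3 were above every Ctrl library and Csn8AKO 4 lay among them, for a log2 fold change of 0.95 ± 0.27 (SE, adjusted p = 0.0798). Top2a, the topoisomerase that untangles sister chromosomes, had its highest levels in the same 3 libraries, at 9.31, 8.11, 5.90 and 5.93 CPM in Ctrl and 16.0, 23.3, 15.4 and 7.45 CPM in Csn8AKO, with a log2 fold change of 1.10 ± 0.32 (SE, adjusted p = 0.0834). Csn8AKO 4 was the lowest of its group in 27 of the 44 genes. Its muscle markers summed to 1578 CPM, and it had the largest share of ribosomal RNA reads of all libraries, at 47.8%. With ribosomal RNA genes left out of the fit, Bub1 and Kif11 were again the only genes called, beside 484 of 19126 higher over all genes. Beyond that fit, the part of muscle or of ribosomal RNA in these levels was not tested. Without Csn8AKO 4, 6 genes were called higher (Bub1, Bub1b, Ccnb1, Cenpe, Mki67 and Top2a), beside 391 of 19749 over all genes. Without Csn8AKO 3 there were 0, beside 147 of 19686 over all genes. Without Ctrl 2, Ctrl 3, Ctrl 4 or Csn8AKO 1, in turn, only Bub1 was called. Cenpa, the histone that marks the centromere, was at 7.35, 3.55, 5.04 and 4.36 CPM in Ctrl and 6.36, 13.0, 8.92 and 7.96 CPM in Csn8AKO, with overlap and a log2 fold change of 0.85 ± 0.30 (SE, adjusted p = 0.144). Kif23, a motor of the dividing cell's midbody, measured 5.61, 6.66, 6.02 and 4.31 against 8.04, 7.58, 12.5 and 5.43 CPM, with a log2 fold change of 0.58 ± 0.26 (SE, adjusted p = 0.248).

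Of the replication genes in sWAT, 0 of 13 passed the test. Mcm2, a helicase subunit, stood at 10.8, 6.51, 4.24 and 6.29 CPM in Ctrl and 7.09, 20.6, 12.5 and 5.86 CPM in Csn8AKO, and its partner Mcm5 at 11.3, 6.06, 3.27 and 6.04 and 8.72, 18.9, 10.7 and 5.86 CPM. In both genes the highest library of each genotype was the lymphocyte-rich one, Ctrl 1 and Csn8AKO 2, and the genotypes overlapped. Cdt1, which loads the helicase on DNA, repeated that order at 7.95, 3.30, 3.15 and 2.18 CPM in Ctrl and 2.95, 12.9, 7.31 and 5.14 CPM in Csn8AKO. Its log2 fold change was 0.78 ± 0.53 (SE, adjusted p = 0.467), beside 0.74 ± 0.44 (SE, adjusted p = 0.394) for Mcm2 and 0.75 ± 0.44 (SE, adjusted p = 0.395) for Mcm5. Pcna measured 24.0, 24.8, 20.3 and 22.3 CPM in Ctrl and 29.6, 29.4, 31.6 and 21.5 CPM in Csn8AKO, a narrow spread in which only Csn8AKO 4 fell among the Ctrl libraries. Rrm2, the regulated subunit of the reductase that makes deoxynucleotides, was at 4.50, 1.30, 1.60 and 2.13 CPM in Ctrl and 4.18, 3.94, 3.08 and 2.24 CPM in Csn8AKO, with Ctrl 1 the highest of all 8. Gmnn, which keeps CDT1 from loading DNA again, was low throughout, at 2.51, 1.60, 1.15 and 0.913 and 2.64, 1.55, 1.47 and 1.88 CPM, with a log2 fold change of 0.28 ± 0.37 (SE, adjusted p = 0.729).

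Of the 5 transcription factors in sWAT, E2f1 came closest to the threshold. It stood at 8.24, 8.46, 7.10 and 7.81 CPM in Ctrl and 13.6, 7.08, 15.2 and 14.4 CPM in Csn8AKO, where 3 libraries were far above the Ctrl range and Csn8AKO 2 was just under it, for a log2 fold change of 0.67 ± 0.23 (SE, adjusted p = 0.124). E2f2 stood high in the lymphocyte-rich libraries. It measured 6.33, 2.60, 2.29 and 3.14 CPM in Ctrl and 2.50, 8.29, 2.01 and 2.53 CPM in Csn8AKO, and Ctrl 1 and Csn8AKO 2 were the highest of all 8. Its log2 fold change was 0.12 ± 0.52 (SE, adjusted p = 0.928), and with both of these libraries left out it was -0.18 (adjusted p = 0.762). Foxm1, the activator of the mitotic wave, was at 4.08, 3.35, 3.04 and 3.30 CPM in Ctrl and 4.54, 5.95, 5.30 and 3.76 CPM in Csn8AKO, a log2 fold change of 0.52 ± 0.23 (SE, adjusted p = 0.237).

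The lymphocyte-rich libraries carried high levels of the proliferation genes as well. Ctrl 1 was the highest Ctrl library in 28 of the 44 genes and Csn8AKO 2 the highest Csn8AKO library in 27. The summed mitosis genes reached 89.7 CPM in Ctrl 1, against 66.7 to 74.9 in Ctrl 2 to 4, and 168 CPM in Csn8AKO 2, against 131, 134 and 81.5 in Csn8AKO 1, 3 and 4. With both left out, 5 genes were called higher (Bub1, Cdc20, Cenpa, E2f1 and Mki67), of which only Bub1 was called with all libraries, while Kif11 lost its call at 0.98 (adjusted p = 0.0554). Calls over all genes rose as well, from 434 of 18843 to 993 of 18547 higher. In that fit the log2 value of Mki67 was 0.81 (adjusted p = 0.0352) and that of Bub1 2.15 (adjusted p = 0.0338). With the mean log2 level of the lymphocyte markers entered as a covariate, 9 genes were called higher, beside 1093 of 18843 over all genes, among them Mki67 at 0.81 (adjusted p = 0.00968) and Top2a at 0.97 (adjusted p = 0.0205). Markers of other cells also differed with genotype. The 12 macrophage markers summed to 855 to 1227 CPM in Ctrl and 1411 to 2530 in Csn8AKO, with 8 of 12 called higher, and 9 markers of progenitors and fibroblasts to 9075 to 10611 and 9461 to 17042 CPM, with 1 of 9 called higher. The 9 adipocyte markers summed to 10592 to 16107 CPM in Ctrl and 4326 to 9964 in Csn8AKO, with 4 of 9 called lower. Of the 12 B cell markers and the 12 T cell markers, 0 were called in either direction. Of the markers of germinal centre B cells, which divide fast, 1 of 3 tested was called higher, and of plasma cells 1 of 5. The former summed to 12.0 to 13.8 CPM in Ctrl and 17.3 to 24.0 in Csn8AKO. Those of plasma cells overlapped, at 122 to 194 and 160 to 204 CPM. The part of these cells in the cell cycle result was not tested.

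**Figure D2:**
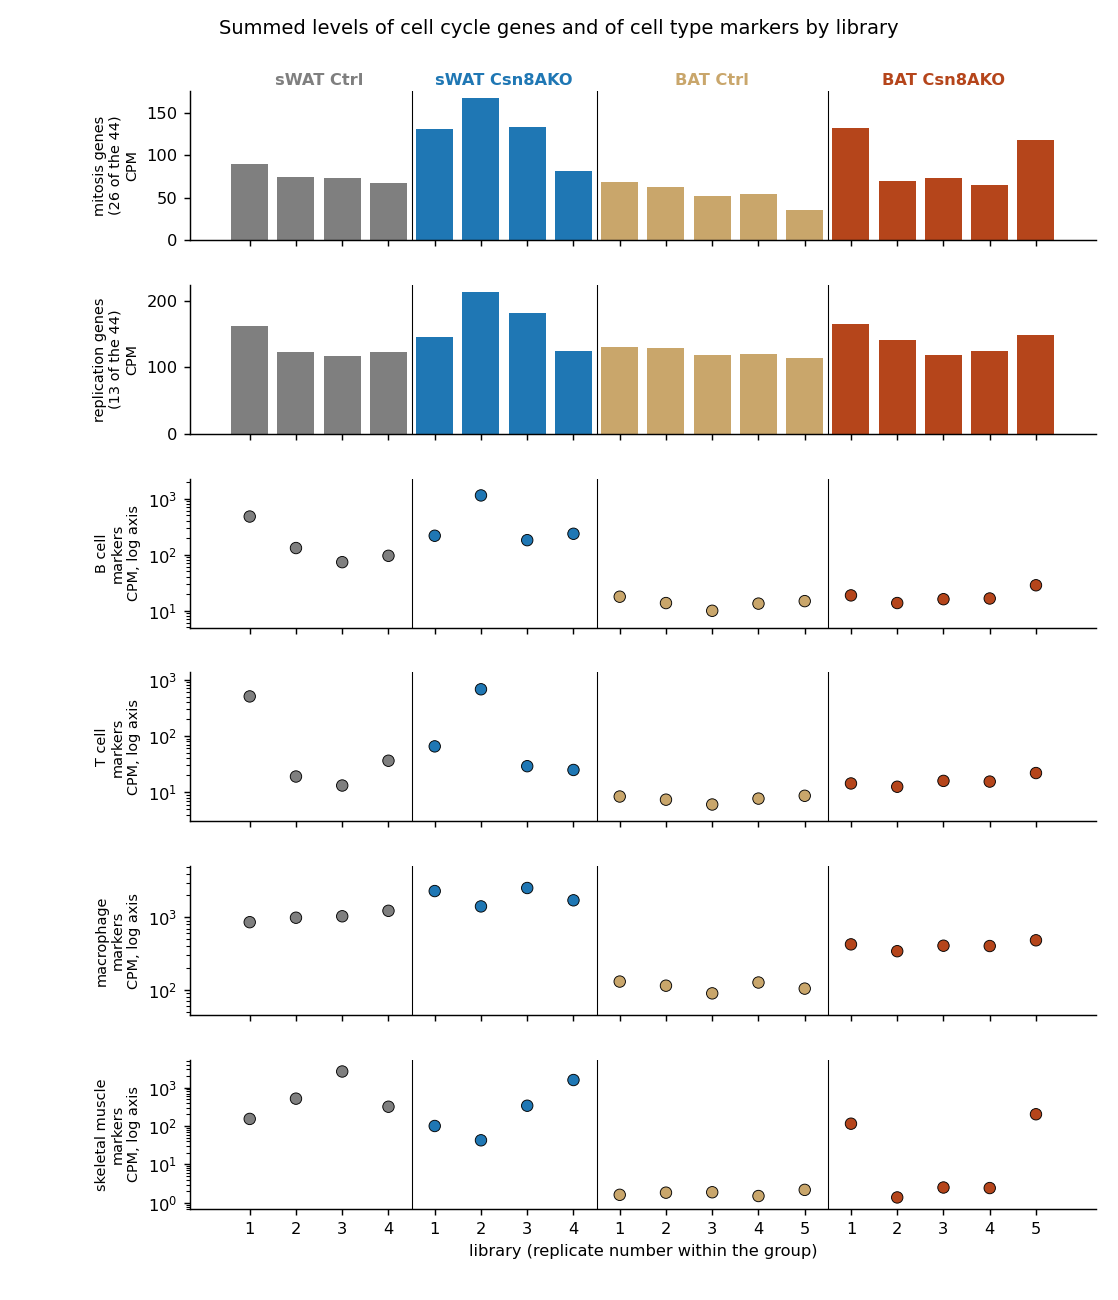
Summed levels (CPM) in each of the 18 libraries of the 26 mitosis genes and the 13 replication genes (bars from 0), and of B cell, T cell, macrophage and skeletal muscle markers (points, log axes). Mitosis genes reach 168 CPM in sWAT Csn8AKO 2, where B and T cell markers are also highest, and 133 and 118 CPM in BAT Csn8AKO 1 and 5, the BAT libraries that hold muscle markers.

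The same question in BAT gave many more calls. In BAT of Csn8AKO mice, 28 of the 44 genes rose, against 16.0% of the 22345 genes tested, and 1 fell, Gmnn, against 15.8%. The median log2 fold change of the 44 was 0.77, against 0.01 over all genes tested, and 41 were positive. All 5 transcription factors were called higher, as were 7 of 13 replication genes, 6 of 9 cyclins and mitotic kinases, 5 of 9 kinesin and spindle genes, 2 of 4 kinetochore genes, 1 of 2 genes of the anaphase-promoting complex, and both Mki67 and Top2a. By at least 2-fold, 10 rose (6.85% of all genes), namely Rrm2, E2f2, E2f8, Plk1, Aurkb, Bub1, Cdc20, Hmmr, Mki67 and Top2a, and 1 fell (4.16%). The genotypes did not overlap in 10 genes (9.50% of all genes), all higher in Csn8AKO. At an unadjusted p under 0.05 there were 34 (41.7% of all genes). Of the 28 genes, 19 stayed called in each of 10 fits that left out 1 mouse; the other 9 (Ccna2, Ccnb2, Bub1b, Cenpe, Ndc80, Kif11, Tpx2, Anln and Mki67) each lost the call without Csn8AKO 1 or Csn8AKO 5 and also without 1 or more of the Ctrl mice, and 3 of them (Cenpe, Kif11 and Ndc80) without Csn8AKO 3 or 4, at adjusted p of up to 0.151.

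Plk1 (ENSMUSG00000030867, chr7:122159439-122169873, GRCm38) had the smallest adjusted p of the 44. It measured 0.674, 1.39, 1.27, 0.629 and 0.689 CPM in BAT Ctrl 1 to 5 and 3.90, 2.64, 2.83, 3.28 and 3.75 CPM in BAT Csn8AKO 1 to 5. Every Csn8AKO mouse was above every Ctrl mouse, by a log2 fold change of 1.83 ± 0.25 (SE, adjusted p = 8.72e-05). Cdc20, which the anaphase-promoting complex needs to let chromosomes part, rose by 1.15 (adjusted p = 0.00133), and Aurkb, the kinase that corrects faulty attachments, by 1.27 (adjusted p = 0.00316), both without overlap. Bub1 stood at 0.486, 0.263, 0.401, 0.267 and 0.223 CPM in Ctrl and 1.31, 0.569, 0.424, 0.533 and 1.22 CPM in Csn8AKO, with 1 Csn8AKO library inside the Ctrl range and a log2 fold change of 1.36 ± 0.37 (SE, adjusted p = 0.0129). Hmmr, a spindle assembly factor, gave 1.46 (adjusted p = 0.00786).

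Mki67 was at 11.5, 9.75, 8.26, 8.99 and 3.57 CPM in BAT Ctrl and 30.9, 11.9, 14.7, 11.4 and 26.6 CPM in BAT Csn8AKO. Csn8AKO 1 and 5 stood well above the other 3, and Csn8AKO 4 lay just under the highest Ctrl library. The log2 fold change was 1.22 ± 0.38 (SE, adjusted p = 0.0333). Top2a followed at 5.21, 4.12, 4.76, 4.48 and 2.34 CPM in Ctrl and 14.4, 6.67, 6.78, 5.71 and 14.4 CPM in Csn8AKO, without overlap, for 1.23 ± 0.31 (SE, adjusted p = 0.0103). Kif11 measured 2.37, 2.12, 1.40, 1.43 and 1.17 CPM in Ctrl and 4.07, 1.79, 2.65, 2.05 and 3.08 CPM in Csn8AKO, with overlap, for 0.72 ± 0.26 (SE, adjusted p = 0.0446). Kif23 was at 1.73, 2.46, 2.14, 1.62 and 1.34 and 4.33, 1.95, 3.50, 2.68 and 3.75 CPM, with Csn8AKO 2 among the Ctrl mice, for 0.83 ± 0.23 (SE, adjusted p = 0.0132).

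The master pair of mitotic entry did not pass the test in BAT. Ccnb1 stood at 1.86, 1.68, 0.818, 0.781 and 0.577 CPM in Ctrl and 2.24, 0.813, 0.989, 0.842 and 2.27 CPM in Csn8AKO, where replicates 1 and 5 were highest and the others lay within the Ctrl range, for a log2 fold change of 0.37 ± 0.40 (SE, adjusted p = 0.525). Cdk1 measured 1.67, 1.70, 0.735, 0.724 and 0.893 CPM in Ctrl and 3.36, 0.651, 1.70, 0.940 and 2.27 CPM in Csn8AKO, for 0.69 ± 0.42 (SE, adjusted p = 0.242). With Csn8AKO 1 and 5 left out, the values turned to -0.35 (adjusted p = 0.564) for Ccnb1 and -0.05 (adjusted p = 0.950) for Cdk1. Cenpa, at 14.1, 9.73, 5.86, 8.33 and 5.32 CPM in Ctrl and 8.15, 8.13, 5.51, 5.88 and 6.22 CPM in Csn8AKO, was on the lower side in Csn8AKO, at a log2 fold change of -0.33 ± 0.24 (SE, adjusted p = 0.333).

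In the S phase group, Tk1, the thymidine kinase of the salvage pathway, had the smallest adjusted p. Its levels were 7.39, 10.1, 9.32, 10.2 and 9.53 CPM in BAT Ctrl and 15.3, 12.4, 17.4, 13.2 and 13.4 CPM in BAT Csn8AKO, all above Ctrl, with a log2 fold change of 0.65 ± 0.12 (SE, adjusted p = 0.00124). Mcm3 likewise did not overlap, at 4.83, 5.65, 5.33, 5.60 and 6.22 CPM in Ctrl and 9.75, 6.87, 8.19, 8.50 and 10.8 CPM in Csn8AKO, for 0.70 ± 0.14 (SE, adjusted p = 0.00162). Of the helicase genes, Mcm2, Mcm3, Mcm5 and Mcm7 were called higher. Mcm6 just missed the threshold at 0.75 (adjusted p = 0.0536), while Mcm4 gave 0.10 (adjusted p = 0.694). Mcm2 stood at 6.02, 5.28, 3.74, 4.23 and 4.80 CPM in Ctrl and 8.56, 5.49, 6.75, 7.18 and 9.53 CPM in Csn8AKO, for 0.67 ± 0.17 (SE, adjusted p = 0.00871), and Mcm5 at 4.26, 3.72, 3.22, 3.98 and 2.96 and 9.98, 3.29, 6.04, 5.32 and 8.55 CPM, for 0.91 ± 0.25 (SE, adjusted p = 0.0132). Rrm2 rose by 1.17 ± 0.33 (SE, adjusted p = 0.0178) on the log2 scale, from 2.78, 1.93, 2.07, 1.91 and 1.30 CPM in Ctrl to 6.45, 2.40, 3.53, 2.33 and 7.20 CPM in Csn8AKO, where replicates 1 and 5 were highest. Its constant partner Rrm1, at 29.5, 26.7, 27.4, 25.5 and 25.7 CPM in Ctrl and 27.0, 26.8, 18.6, 19.7 and 23.2 CPM in Csn8AKO, gave -0.20 ± 0.11 (SE, adjusted p = 0.183), and Pcna, at 23.6, 23.0, 21.9, 21.1 and 21.9 and 27.9, 29.1, 18.8, 24.8 and 21.8 CPM, gave 0.16 ± 0.11 (SE, adjusted p = 0.312); neither passed the test.

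The licensing factor and its inhibitor were called in opposite directions in BAT. Cdt1 stood at 1.67, 2.33, 1.69, 1.51 and 1.77 CPM in Ctrl and 3.74, 2.16, 3.32, 3.04 and 4.80 CPM in Csn8AKO, with only Csn8AKO 2 inside the Ctrl range, and rose by a log2 fold change of 0.95 ± 0.21 (SE, adjusted p = 0.00332). Gmnn (ENSMUSG00000006715, chr13:24751845-24761923, GRCm38) stood at 18.5, 16.4, 11.3, 12.7 and 8.37 CPM in Ctrl and 7.95, 10.5, 2.93, 4.07 and 3.96 CPM in Csn8AKO. All Csn8AKO mice but Csn8AKO 2 were below every Ctrl mouse, Csn8AKO 1 only narrowly, and Csn8AKO 2 lay inside the Ctrl range, and the log2 fold change was -1.17 ± 0.35 (SE, adjusted p = 0.0260). That call was lost without Ctrl 1, Ctrl 2, Csn8AKO 4 or Csn8AKO 5, at adjusted p of 0.0565 to 0.0649.

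All 5 cell cycle transcription factors were called higher in BAT of Csn8AKO mice. E2f2 (ENSMUSG00000018983, chr4:136172394-136196057) had the smallest adjusted p among them, with 4.67, 5.12, 4.42, 3.22 and 4.48 CPM in Ctrl and 6.64, 8.54, 12.3, 15.9 and 15.2 CPM in Csn8AKO. Every Csn8AKO mouse was above every Ctrl mouse, and unlike for the mitosis genes the highest were Csn8AKO 4 and 5 and the lowest Csn8AKO 1; the log2 fold change was 1.44 ± 0.23 (SE, adjusted p = 3.10e-04). E2f1 was at 2.16, 1.67, 1.69, 2.29 and 2.40 CPM in Ctrl and 4.16, 2.68, 3.89, 3.24 and 5.31 CPM in Csn8AKO, also without overlap, for 0.94 ± 0.20 (SE, adjusted p = 0.00242). Foxm1 measured 3.08, 3.42, 2.95, 2.95 and 1.90 CPM in Ctrl and 6.37, 3.29, 4.13, 4.21 and 6.05 CPM in Csn8AKO, with Csn8AKO 2 inside the Ctrl range, for 0.78 ± 0.21 (SE, adjusted p = 0.0114). Mybl2, the Myb protein of the mitotic wave, gave 0.60 (adjusted p = 0.0115) without overlap, and E2f8, the repressor that ends S phase transcription, 1.51 (adjusted p = 0.0132).

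**Figure D3:**
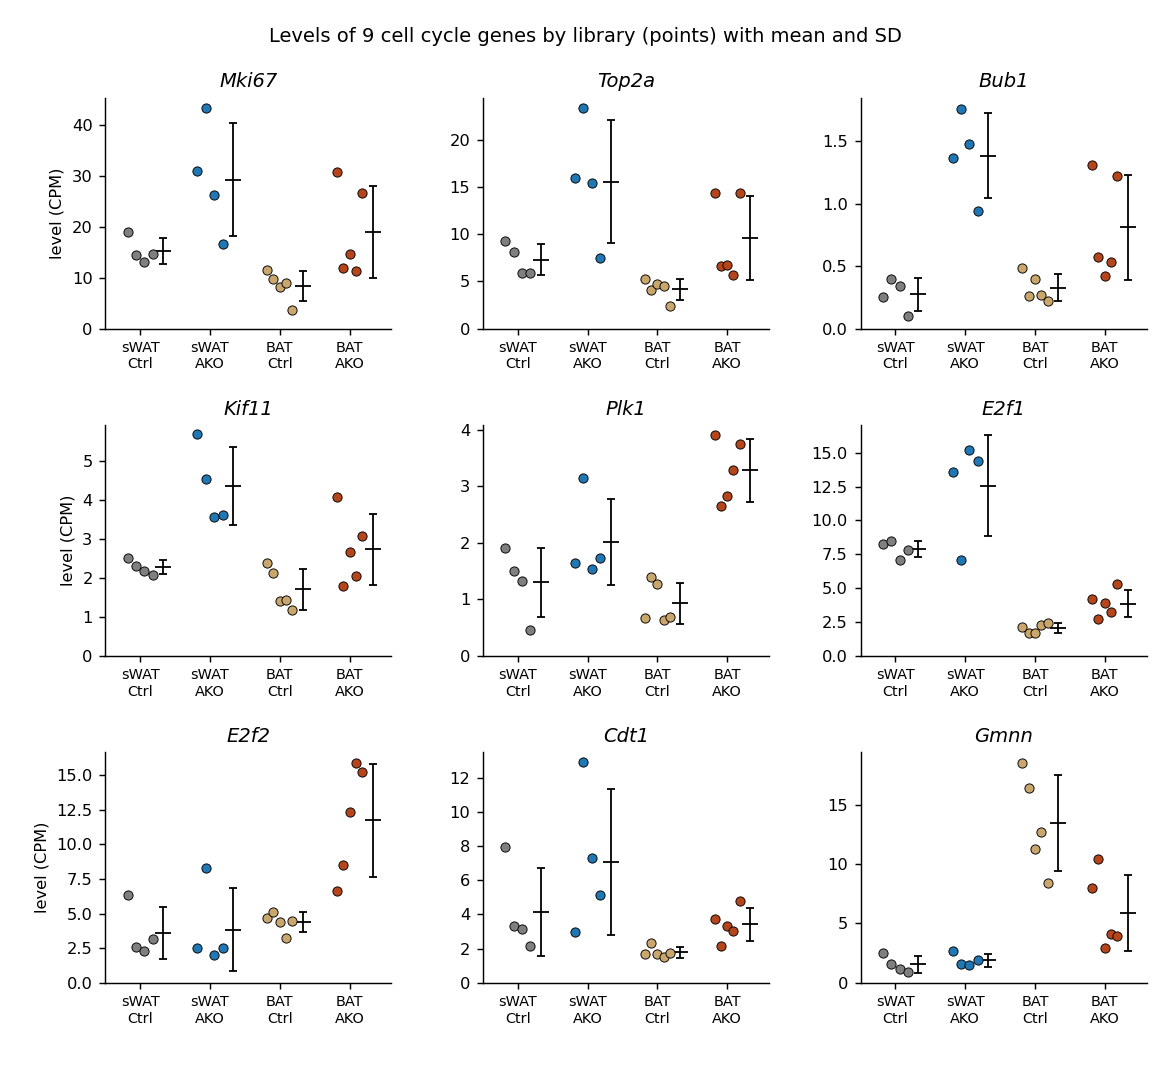
Levels (CPM, linear axes from 0) of 9 cell cycle genes in each library, with the mean and SD of each group beside its points. Bub1 and Kif11 separate the genotypes in sWAT, Plk1, Top2a, E2f1 and E2f2 separate them in BAT, and Gmnn is highest in BAT Ctrl.

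Among the Csn8AKO mice, most of the genes were highest in a muscle-rich library, though not Tk1 (Csn8AKO 3) or E2f2 (Csn8AKO 4). Gmnn was lowest in Csn8AKO 3. Csn8AKO 1 or Csn8AKO 5 was the highest Csn8AKO library in 38 of the 44 genes (24 and 14), and the summed mitosis genes reached 133 and 118 CPM in them, against 70.3, 72.8 and 64.8 in Csn8AKO 2, 3 and 4 and 35.8 to 68.6 in Ctrl. With both left out, 9 of the 28 genes were called higher (Aurkb, Cdc20, Cdt1, E2f1, E2f2, Mcm3, Mybl2, Plk1 and Tk1) and 0 lower, beside 2560 of 23109 higher over all genes. Gmnn lost its call at a log2 value of -1.22 (adjusted p = 0.0773), no smaller than with all libraries. Plk1 was then at 1.65 (adjusted p = 0.00135), E2f2 at 1.50 (adjusted p = 2.59e-04), Top2a at 0.62 (adjusted p = 0.0600) and Mki67 at 0.60 (adjusted p = 0.173). Lymphocyte markers were low but also moved with genotype, the T cell markers from 6.03 to 8.62 CPM in Ctrl to 12.5 to 21.9 in Csn8AKO, with 5 of 11 tested called higher, and the B cell markers from 9.93 to 17.7 to 13.7 to 28.4, with 1 called higher and 1 lower. Of germinal centre B cell markers 2 of 3 tested were called higher, of plasma cell markers 2 of 4, of mast cell markers 4 of 5 and of endothelial markers 3 of 7. With the mean log2 level of the B and T cell markers alone as a covariate, only Plk1 was called, at 1.87 (adjusted p = 0.0155), and Mki67 was at 0.56 (adjusted p = 0.647). That covariate itself differed with genotype, at 0.599 to 0.875 in Ctrl and 0.850 to 1.19 in Csn8AKO, and calls over all genes fell with it from 3585 to 894 of 22345 higher. Macrophage markers summed to 89.5 to 130 CPM in Ctrl and 341 to 482 in Csn8AKO, with 11 of 12 called higher, and markers of progenitors and fibroblasts to 1096 to 1885 and 2852 to 4795 CPM, with 9 of 9 called higher. Adipocyte markers summed to 12150 to 14198 and 11473 to 14490 CPM, with 3 of 9 called lower. Beyond the fits without the muscle-rich libraries and with the lymphocyte covariate, the part of these cells in the result was not tested.

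**Figure D4:**
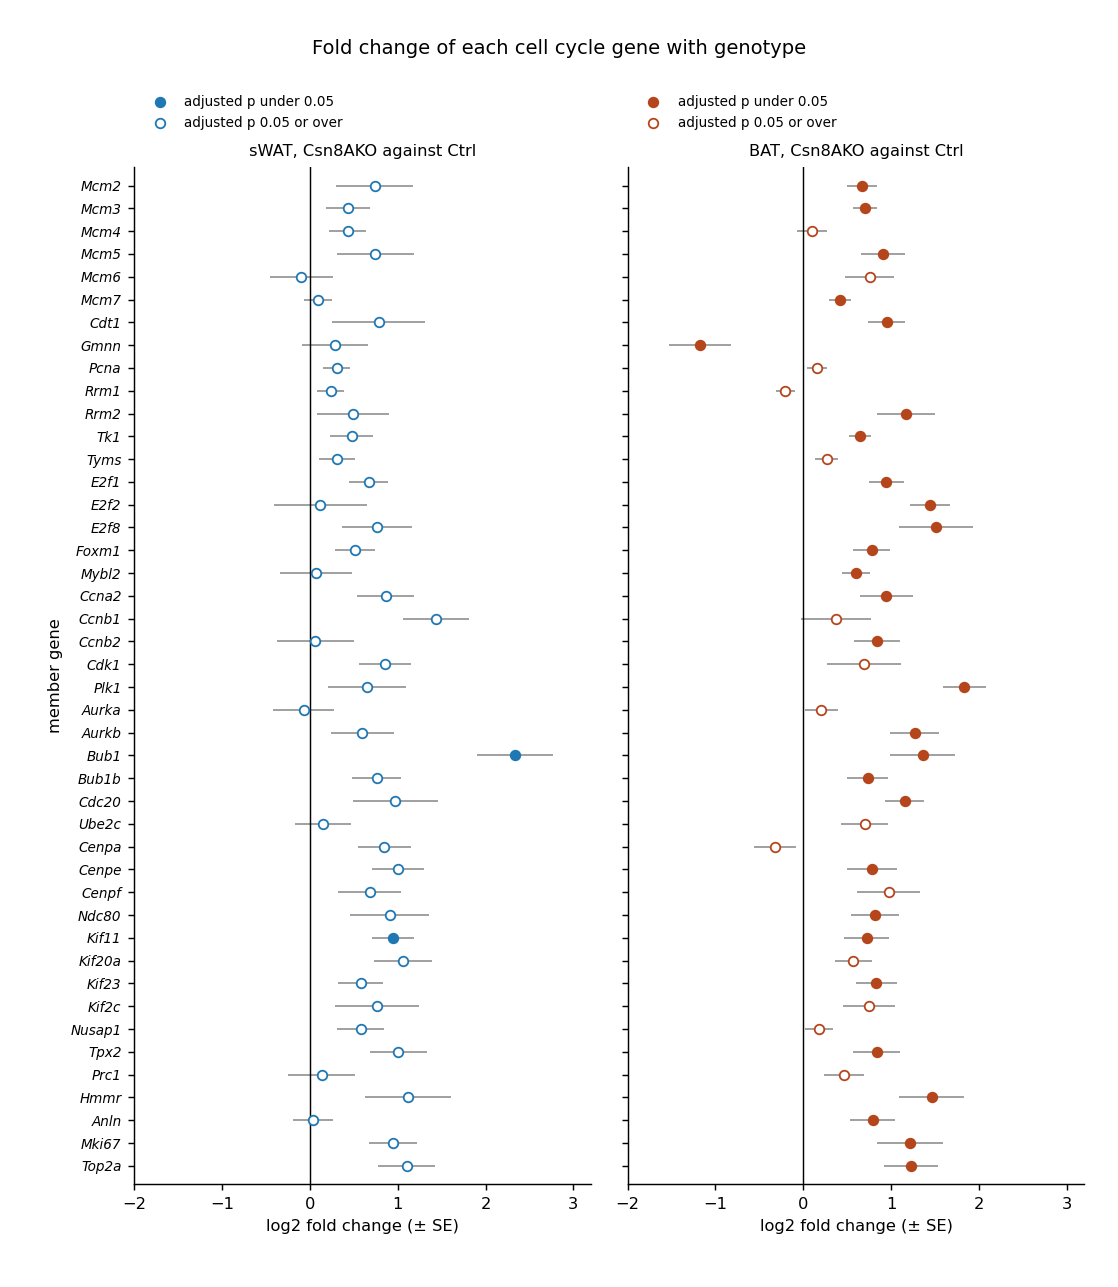
Log2 fold change (± SE) of each of the 44 genes in Csn8AKO against Ctrl, in sWAT (left, 4 against 4 mice) and BAT (right, 5 against 5 mice), with filled points for an adjusted p under 0.05. Most points lie right of 0 in both tissues, 2 are filled in sWAT and 29 in BAT, and Gmnn is the only filled point left of 0.

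Whether the change with genotype differed between the tissues was tested as an interaction over all 18 libraries. Of the 44 genes, 0 passed at an adjusted p under 0.05 by edgeR, as also by DESeq2 and by limma voom, against 2.36% of the 22509 genes tested by edgeR (1.37% higher and 0.440% lower by at least 2-fold). At an unadjusted p under 0.05 there were 5 (15.3% of all genes). These were Cenpa and Gmnn, with interaction values (BAT change minus sWAT change, log2) of -1.19 ± 0.39 (SE, adjusted p = 0.129) and -1.48 ± 0.52 (SE, adjusted p = 0.163), Rrm1 at -0.46 ± 0.18 (SE, adjusted p = 0.227), E2f2 at 1.31 ± 0.55 (SE, adjusted p = 0.250) and Plk1 at 1.17 ± 0.48 (SE, adjusted p = 0.239). E2f2 alone passed when sWAT Csn8AKO 2 was left out, at 2.04 ± 0.44 (SE, adjusted p = 0.0128), and when both lymphocyte-rich libraries were, at 1.61 ± 0.37 (SE, adjusted p = 0.0200). With all libraries, the interaction test thus did not show a larger change in BAT for any of the 44 genes. Their median log2 fold change was 0.77 in BAT and 0.66 in sWAT. BAT also had more mice and more reads, and the cause of its larger number of calls was not tested.

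The last comparison set the brown fat of growing mice against the white fat of older mice, both Ctrl. Proliferation genes were on the lower side in BAT. Of the 44 genes, 13 were lower and 3 higher in BAT Ctrl at an adjusted p under 0.05, against 25.7% lower and 25.9% higher among all 22509 genes tested, so that the count of lower genes was near its background and that of higher genes well under it. The median log2 fold change was -0.41, against 0.03 for all genes, and 33 of the 44 were negative. At an unadjusted p under 0.05 there were 19 (56.7% of all genes). By at least 2-fold, 8 were lower (17.7% of all genes) and 1 was higher (13.3%). The groups did not overlap in 14 genes that were lower in BAT (22.1% of all genes) and 2 that were higher (23.8%). By role, 5 of 13 replication genes, 2 of 5 transcription factors, 1 of 9 cyclins and mitotic kinases, 1 of 2 anaphase-promoting complex genes, 0 of 4 kinetochore genes, 2 of 9 kinesin and spindle genes and both Mki67 and Top2a were called lower. Without sWAT Ctrl 1, the lymphocyte-rich Ctrl library, 8 genes were lower and 5 higher, and with both lymphocyte-rich libraries left out 10 and 6. Over all genes, 5536 were lower and 5135 higher of 23103 in the former fit, and 5903 and 5610 of 22873 in the latter.

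E2f1 (ENSMUSG00000027490, chr2:154559407-154569892, GRCm38) differed most among the lower genes. It stood at 2.16, 1.67, 1.69, 2.29 and 2.40 CPM in BAT Ctrl and 8.24, 8.46, 7.10 and 7.81 CPM in sWAT Ctrl, 2 ranges far apart, with a log2 fold change of -1.95 ± 0.22 (SE, adjusted p = 3.93e-07). Kif23 was at 1.73, 2.46, 2.14, 1.62 and 1.34 CPM in BAT and 5.61, 6.66, 6.02 and 4.31 CPM in sWAT, for -1.60 ± 0.26 (SE, adjusted p = 2.99e-05), and Mcm3 at 4.83, 5.65, 5.33, 5.60 and 6.22 and 15.5, 9.36, 10.6 and 11.3 CPM, for -1.08 ± 0.19 (SE, adjusted p = 6.88e-05). None of these 3 ranges overlapped, and all 3 genes stayed called under each of 27 alternatives. Mcm6 gave -1.88 (adjusted p = 9.64e-05), Anln, a scaffold of the cleavage furrow, -1.16 (adjusted p = 9.43e-04), and Aurkb -1.20 (adjusted p = 0.00392). Mki67, at 11.5, 9.75, 8.26, 8.99 and 3.57 CPM in BAT and 19.1, 14.5, 13.2 and 14.7 CPM in sWAT, gave -0.87 ± 0.35 (SE, adjusted p = 0.0439), and Top2a, at 5.21, 4.12, 4.76, 4.48 and 2.34 and 9.31, 8.11, 5.90 and 5.93 CPM, gave -0.81 ± 0.33 (SE, adjusted p = 0.0484). Both sets of ranges were apart, but both calls were near the threshold and were lost in 9 of 18 fits that left out 1 library, namely each of the 4 sWAT Ctrl libraries, sWAT Csn8AKO 3 and BAT Ctrl 2 to 5, at adjusted p of up to 0.124. Cdt1 was at 1.67, 2.33, 1.69, 1.51 and 1.77 CPM in BAT and 7.95, 3.30, 3.15 and 2.18 CPM in sWAT, for -1.21 ± 0.38 (SE, adjusted p = 0.0112), and at an adjusted p of 0.107 without sWAT Ctrl 1. Cdk1, Ccnb1, Bub1 and Plk1, 4 regulators of mitosis, did not pass in either direction, with log2 fold changes of -0.25, 0.80, 0.24 and -0.48.

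Of the 3 genes called higher in BAT Ctrl, Gmnn differed most. Its levels were 18.5, 16.4, 11.3, 12.7 and 8.37 CPM in BAT Ctrl and 2.51, 1.60, 1.15 and 0.913 CPM in sWAT Ctrl, 8.61-fold higher in BAT by the fit, at a log2 fold change of 3.11 ± 0.40 (SE, adjusted p = 2.36e-06). The lowest BAT Ctrl mouse was above the highest sWAT library, and the call held under all 27 alternatives. Rrm1 was at 29.5, 26.7, 27.4, 25.5 and 25.7 CPM in BAT and 18.1, 17.6, 16.3 and 17.9 CPM in sWAT, again apart, for 0.62 ± 0.13 (SE, adjusted p = 5.20e-04). Cenpa, at 14.1, 9.73, 5.86, 8.33 and 5.32 CPM in BAT and 7.35, 3.55, 5.04 and 4.36 CPM in sWAT, overlapped, for 0.76 ± 0.28 (SE, adjusted p = 0.0281), and lost its call without sWAT Ctrl 2, sWAT Ctrl 3, sWAT Ctrl 4, BAT Ctrl 1 or BAT Ctrl 2, at adjusted p of up to 0.103. This comparison and that of genotypes in BAT share the BAT Ctrl mice.

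**Figure D5:**
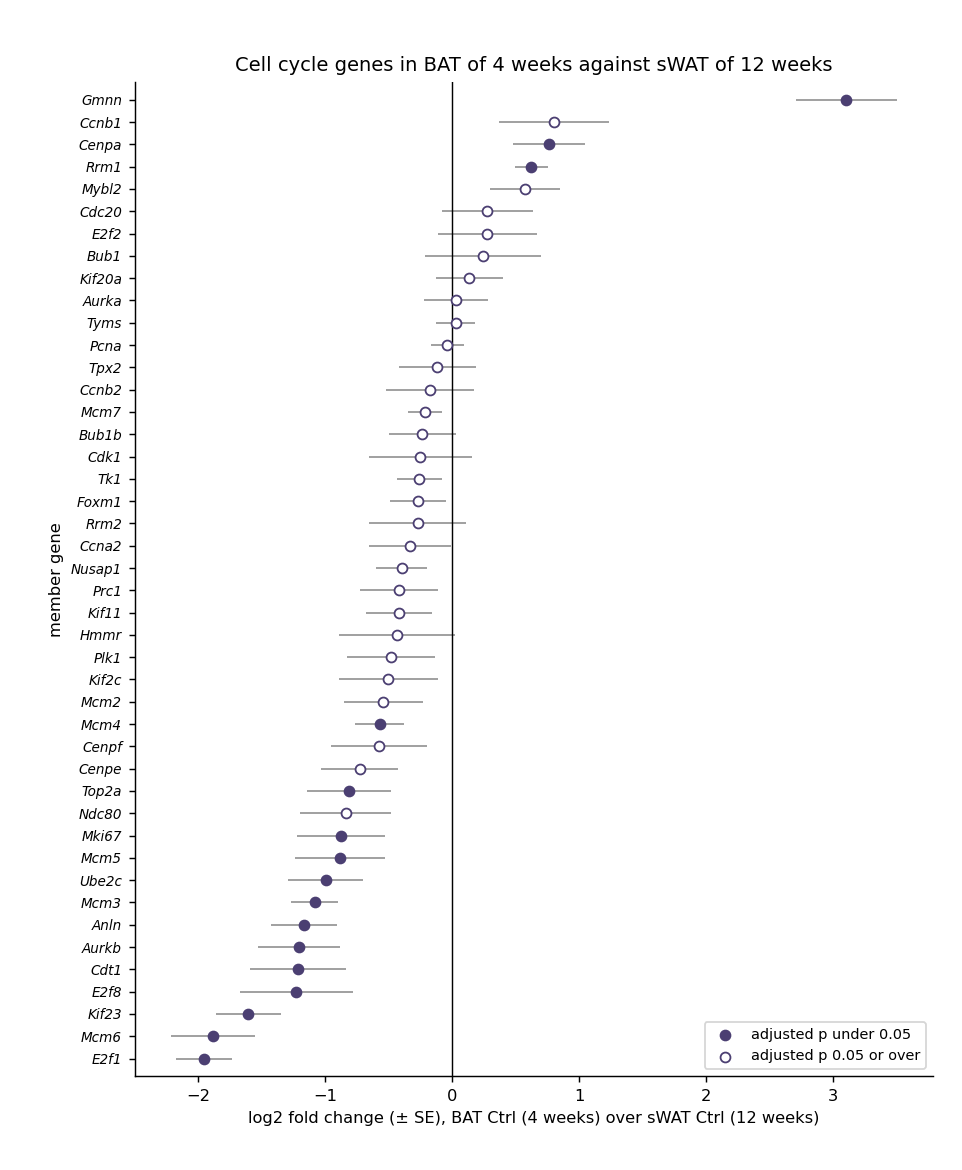
Log2 fold change (± SE) of each of the 44 genes in BAT Ctrl (4 weeks, 5 mice) over sWAT Ctrl (12 weeks, 4 mice), in order of size, with filled points for an adjusted p under 0.05. Gmnn lies far to the right at 3.11, 13 filled points lie left of 0, and E2f1 is the lowest at -1.95.

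Markers of other cells differed widely between the depots. The B cell markers summed to 73.3 to 479 CPM in sWAT Ctrl and 9.93 to 17.7 in BAT Ctrl, with 10 of 12 called lower in BAT, and the T cell markers to 13.1 to 505 and 6.03 to 8.62, with 12 of 12. Macrophage markers stood at 855 to 1227 and 89.5 to 130 CPM and markers of progenitors and fibroblasts at 9075 to 10611 and 1096 to 1885 CPM, with 12 of 12 and 9 of 9 called lower in BAT. Endothelial markers went the other way, at 453 to 518 CPM in sWAT Ctrl and 807 to 1049 in BAT Ctrl, with 6 of 7 called higher in BAT. Erythroid markers stood at 397 to 558 and 538 to 1384 CPM, with 2 of 6 tested called higher. Skeletal muscle markers, at 153 to 2631 CPM in sWAT Ctrl, were at 1.51 to 2.18 in BAT Ctrl. Since depot, age and these cells differ together, their parts in the difference cannot be told apart.

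A further 3 lists of cell cycle genes gave the surroundings of the 44. Of 48 other S phase genes, 6 rose (16.0% of all genes) and 3 fell (15.8%) in BAT of Csn8AKO mice, with a median log2 fold change of 0.10. Both counts were under their background shares. Hells, a remodeller of replicating chromatin, rose by 0.76 (adjusted p = 0.00164), Chaf1b, which places histones on new DNA, by 1.08 (adjusted p = 0.00298), and the replication factor Mcm10 by 1.26 (adjusted p = 0.00664). Cdc45, a partner of the Mcm helicase, fell, at -0.74 (adjusted p = 0.0114), as did Wdr76 at -0.39 (adjusted p = 0.0178). Of 51 other G2 and mitosis genes tested in BAT, 19 rose (16.0% of all genes) and 0 fell (15.8%), with a median of 0.80. Psrc1, a spindle protein, gave 4.07 (adjusted p = 6.83e-05), Pimreg 2.09 (adjusted p = 4.38e-06) and Gas2l3 1.44 (adjusted p = 9.16e-05). The value of Psrc1 rests on few reads, at 0.109 ± 0.0785 CPM in BAT Ctrl and 1.89 ± 1.09 in BAT Csn8AKO (SD, n = 5). In sWAT, 0 of 47 S phase genes and 4 of 46 G2 and mitosis genes were called, all 4 higher (2.30% of all genes). Among them were Gas2l3 at 1.22 (adjusted p = 0.00695), Arhgap11a at 0.68 (adjusted p = 0.0350) and Aspm, a protein of the spindle poles, at 1.07 (adjusted p = 0.0350). The medians there were 0.26 and 0.67.

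Between the depots, 12 of 47 other S phase genes were lower and 6 higher in BAT Ctrl, and 13 of 52 other G2 and mitosis genes were lower and 3 higher. The counts of lower genes were near the 25.7% of all genes, and those of higher genes under the 25.9%. Lig1, the ligase of Okazaki fragments, gave -1.10 (adjusted p = 1.31e-05), and Ung, which removes uracil from DNA, 1.19 (adjusted p = 9.92e-05). Cks1b, a partner of the cyclin-dependent kinases, gave -1.46 (adjusted p = 1.47e-05), and the condensin subunit Ncapd2 1.21 (adjusted p = 4.02e-05). The list of 18 genes around the destruction of cell cycle proteins also holds a protein that is destroyed, Pttg1. Of these 18, 6 were called higher (16.0% of all genes) and 2 lower (15.8%) in BAT of Csn8AKO mice. Their median log2 fold change was -0.01. The anaphase-promoting complex subunits Cdc16 and Anapc2 rose by 0.41 (adjusted p = 0.00111) and 0.29 (adjusted p = 0.00300), Skp2, the F-box protein that marks p27 for destruction, by 0.62 (adjusted p = 0.0103), and Anapc10 fell, at -0.40 (adjusted p = 0.0236). Pttg1, or securin, which the anaphase-promoting complex destroys to let sister chromosomes part, was called lower in Csn8AKO mice in both tissues, at -0.69 (adjusted p = 0.0373) in sWAT and -0.65 (adjusted p = 2.49e-04) in BAT, and higher in BAT Ctrl than in sWAT Ctrl at 1.22 (adjusted p = 1.33e-07). These comparisons share the Ctrl mice. Pttg1 was the only gene of that list called in sWAT. In each comparison the background shares given above apply to these lists as well.

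The counts of some of the genes are uncertain. The use of strand in counting is not stated, 21 of the 44 genes were overlapped by another gene of the annotation, and 12 of them shared exonic bases with it (Mcm7, Tk1, E2f8, Foxm1, Ccna2, Plk1, Cdc20, Ube2c, Kif20a, Nusap1, Prc1 and Top2a). Of these, 8 were called higher in BAT (Mcm7, Tk1, E2f8, Foxm1, Ccna2, Plk1, Cdc20 and Top2a), with 1.35% (Top2a) to 12.6% (Mcm7) of their exonic bases shared. Only unambiguous reads were counted, so that reads on bases shared by opposite strands were left out unless strand was used.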

How the data were processed

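RNA of sWAT and BAT of male Csn8AKO and Ctrl mice was depleted of ribosomal RNA and sequenced as paired reads of 150 bases. Per the methods, the authors aligned reads with STAR 2.7.9a to Ensembl release 101 (GRCm38) and deposited the count of uniquely aligned, unambiguous reads of each of 55487 genes from featureCounts 2.0.3, without normalization. Whether strand was used is not given in the sources used here. The deposited counts were tested here with edgeR 4.0.16 in R 4.3.3 (filterByExpr at count 10 and total 15, TMM scaling, the quasi-likelihood test with robust dispersion), with Benjamini-Hochberg adjustment over all genes tested and calls at an adjusted p under 0.05. Genotypes were compared within each tissue; BAT Ctrl with sWAT Ctrl, and the interaction, in a fit of 4 groups over 18 libraries. Printed CPM are counts scaled by TMM factors over all 18 libraries, while fold changes within a tissue come from that tissue alone, so the scales differ slightly.

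The 44 genes and all lists were chosen with earlier results of these data known, so no count is independent evidence. By rule, all 44 genes may be named; values in every library are for 12 fixed genes and the 3 called genes of smallest adjusted p per direction and comparison; up to 3 called genes per direction are named from each pathway list, of which 1 is not reported here. Fits were tested on simulated data. Alternatives were other scalings and filters, DESeq2 1.42.0, limma 3.58.1 voom, a replicate block, a lymphocyte marker covariate, and leaving out libraries or ribosomal RNA genes. Deviations of same-numbered mice had correlations of -0.43 to 0.27 over the 4 sWAT and 5 BAT pairs, which cannot settle whether mice were paired. No pair of libraries was a duplicate. Promoters are from the RefSeq table for GRCm38.p6, which matched 37 genes; Mcm4, Gmnn, Foxm1, Ccna2, Aurkb, Kif20a and Tpx2 did not match. Tables were made with Python 3.11.15 and pandas 2.3.3.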

Additional observations from a re-analysis of the deposited data

Results flagged for a closer look

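In 84 sets of libraries (21 genes in 4 groups), 3 held a library whose gap to the nearest of the others took up most of the range of its group, and chance gives about 1 in 20. Ccnb1 in sWAT Csn8AKO 4 was low, at 0.868 CPM against 1.95, 2.01 and 2.15 in the other 3. E2f2 in sWAT Csn8AKO 2 was high, at 8.29 CPM against 2.01 to 2.53, as was Plk1 in the same library, at 3.14 CPM against 1.54 to 1.74. That library holds the highest B and T cell markers, and their part in these levels was not tested.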

How the results depend on the processing

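For genes measured in every library, 888 of 1012 values under alternatives kept their direction and side of the threshold, 97 lost and 19 gained a call, and 8 turned sign: Ccnb1 in BAT to -0.78 and -0.35 and Cdk1 in BAT to -0.54 and -0.048 (lymphocyte covariate; muscle-rich libraries left out), Pcna between depots to 0.042 with no filter and 0.011 without sWAT Ctrl 2 (-0.084 to 0.011 over fits without 1 library), and Rrm2 to 0.21 without sWAT Ctrl 1 (-0.47 to 0.21) and 0.21 without both lymphocyte-rich libraries; none of these was called. In sWAT, the 2 genes called higher became 1 by library size alone, 1 with no filter, 8 by DESeq2, 11 by limma voom, 1 with the replicate block, 9 with the lymphocyte covariate, 5 without both lymphocyte-rich libraries, and 0 to 6 without 1 library. Higher calls over all 18843 genes moved too, from 434 to 106 by library size alone, 912 by DESeq2 and 1077 by limma voom. They were 134 with the replicate block and 1093 with the lymphocyte covariate. In BAT, the 28 genes called higher became 1 with the lymphocyte covariate, 9 without both muscle-rich libraries and 22 with the replicate block, against 20 to 31 without 1 library. Over all genes, the 3585 of 22345 called higher became 894 of 22345, 2560 of 23109 and 3353 of 22345 in the first 3 of these settings. The 1 gene called lower became 0 with no filter, with the lymphocyte covariate and without both muscle-rich libraries, 2 by limma voom, and 0 to 1 without 1 library. Between depots, the 3 higher genes became 1 by library size alone, 6 without both lymphocyte-rich libraries and 2 to 5 without 1 library, and the 13 lower genes 8 to 15. By library size alone, higher calls between depots over all 22509 genes fell from 5823 to 2893. The interaction called 0, except 1 without both lymphocyte-rich libraries and 0 to 1 without 1 library. Scaling by library size moved the median log2 change of all genes to 0.14 in BAT, -0.21 between depots and 0.21 for the interaction. The labels do not say whether replicate numbers pair the mice. Leaving out both lymphocyte-rich libraries, both muscle-rich libraries or the ribosomal RNA genes was chosen after seeing the data. Bub1, E2f8 and other genes under 1 CPM rest on few reads. Where no value above shows it, the cause was not tested.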
